A study of Homo sapiens with 12 samples.

Results

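The nuclear receptor family was followed here as 46 named human genes in A498 cells, an established kidney carcinoma line, in which the fatty acid elongases ELOVL2 and ELOVL5 had been lowered with siRNA. The 46 genes were chosen by name, as members of a protein family, and all of them have a row in the deposited table of 57773 genes. Of these, 42 reached a normalized count of 1 in 3 or more of the 12 libraries and were tested with the 18648 genes of the table that did so. The other 4 were RXRG, NR2E1, NR0B2 and ESRRB. All cells were transfected, with a control siRNA, an siRNA against ELOVL2 (siELOVL2), an siRNA against ELOVL5 (siELOVL5), or both siRNAs together (double knockdown), and each of these 4 groups holds 3 libraries named as biological replicates. An siRNA is a short duplex of RNA that directs the breakdown of transcripts matching it. Libraries are named by group and replicate number. The labels used here give no siRNA sequence, dose or time of harvest, and whether the replicates came from separate transfections or passages is not stated, so p-values measure only the spread between these libraries.

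Nuclear receptors are transcription factors that bind DNA through a zinc finger domain and carry a pocket for a small fat-soluble ligand, such as a steroid, a retinoid, thyroid hormone, a bile acid, an oxysterol or a fatty acid. Many of them bind DNA only as a heterodimer with a retinoid X receptor (RXR), so that the RXRs are shared partners of the PPARs, LXRs, FXR, the retinoic acid receptors, the thyroid hormone receptors and the vitamin D receptor. Polyunsaturated fatty acids, whose chains ELOVL2 and ELOVL5 lengthen, are ligands of the PPARs, and docosahexaenoic acid can bind RXR. In the kidney tubule, HNF4A drives much of the proximal tubule programme, FXR and the PPARs take part in lipid handling, and the vitamin D, mineralocorticoid and glucocorticoid receptors mediate hormone responses.

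The values are read counts after quantile normalization by the authors, called normalized counts here, and the depth before that step was estimated at 6.84 to 10.7 M reads per library. Both siRNAs lowered their targets, ELOVL2 to 9.32% and ELOVL5 to 7.48% of control when given alone and to 8.87% and 9.03% when given together. Of the 10 kidney and carcinoma line markers examined, PAX8 lay at 510.6 to 676.5 and VIM at 13120 to 24170, while CA9 reached no more than 29.1 and LRP2 no more than 1.00. CDH6, a kidney cadherin, varied widely, from 246.8 to 3863, with means of 2529 in control, 1148 after siELOVL2, 1566 after siELOVL5 and 915.5 in the double knockdown, and was not called by limma (adjusted p = 0.505, 0.822 and 0.242 against control); its part in the results was not tested. Of the leukocyte markers, PTPRC stayed at or below 2.83 in every library, LYZ at or below 1.00 and CD14 at or below 9.67, and CD3E was at 0 in all of them, while CD68, a lysosomal protein, lay at 285.0 to 451.1. The library siELOVL5 replicate 3 stood apart: over 9183 well measured genes its median distance from its group mean was 0.149 on the log2 scale, against 0.0469 to 0.107 in the other 11 libraries. In it ATF3, a stress-response transcription factor, reached 4390 against 111 to 222 elsewhere, JUN reached 4844 against at most 1087, and 12 of 14 immediate early genes were at their highest. It also held the highest value of 13 of the 42 tested receptor genes, where 15.6% of all tested genes were highest there, so most differences that involve the siELOVL5 group are given with and without it. Without it the log2 fold change after siELOVL5 moved by a median of 0.104 over the 41 receptor genes tested both ways, and 8 of the 41 changed direction, among them NR1D1, NR1H4, NR1H2 and ESRRG.

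The comparisons of each knockdown with control ask which receptor transcripts differed when either elongase or both had been lowered, and few did. Throughout, a gene is called when its limma p-value, adjusted over all 18648 tested genes by the Benjamini-Hochberg method, lies under 0.05, and fold changes are on the log2(normalized count + 1) scale. After siELOVL2, 1 of the 42 tested receptor genes was called higher, RXRB, and 0 lower. Over all tested genes 1.36% were called, 0.547% higher and 0.815% lower. After siELOVL5, 0 were called higher and 1 lower, RXRA, against 0.139% of all tested genes, 0.0161% higher and 0.123% lower. In the double knockdown 2 were called higher, RXRB and NR2F6, and 2 lower, RXRA and VDR, against 4.42% of all tested genes, 2.15% higher and 2.27% lower. Between siELOVL5 and siELOVL2 cells PPARD was called higher with siELOVL5 and RXRA lower, against 3.01% of all tested genes, 1.46% higher and 1.56% lower. The interaction, which asks whether the double knockdown differs from the sum of the single ones, called 0 receptor genes and 0% of all tested genes, with 0% higher and 0% lower. It had 3 receptor genes (RXRA, RORB and RARG) and 522 genes in all at an unadjusted p under 0.05, and 9 genes in all were called when limma was run without its intensity trend.

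Over the family the changes against control were small and ran in both directions. The median log2 fold change of the 42 tested receptor genes was 0.042 after siELOVL2, 0.15 after siELOVL5 and -0.032 in the double knockdown, and over all tested genes it was 0.017, -0.0039 and 0.016. Above 0 lay 23, 24 and 19 of the 42. The median size of the change, regardless of direction, was 0.16, 0.21 and 0.23 for the receptor genes and 0.20, 0.18 and 0.22 for all tested genes. Between siELOVL5 and siELOVL2 cells it was larger for the receptor genes, 0.34 against 0.215 for all tested genes, with 22 of the 42 above 0. An unadjusted limma p under 0.05 was found there for 10 of the 42 and for 3201 of all 18648 tested genes. In some genes all 3 libraries of a group lay on the same side of all 3 libraries compared with them. This separation held for 9, 6 and 7 of the 42 after siELOVL2, siELOVL5 and the double knockdown. Over all 18648 tested genes it held for 4179, 2445 and 4620. Between siELOVL5 and siELOVL2 cells it held for 10 of the 42 and for 3732 of all tested genes. Separation was thus common and does not by itself set a receptor gene apart. Without siELOVL5 replicate 3 the receptor median after siELOVL5 was 0.011, with 23 of 41 tested above 0. Without siELOVL5 replicate 3 the number of genes called was 829 in place of 254 after siELOVL2 (4.49% of those tested), 41 in place of 26 after siELOVL5 (0.222%) and 1779 in place of 825 in the double knockdown (9.64%). The receptor genes then called were RXRB and ESRRG after siELOVL2, RXRA after siELOVL5, and NR2F6, RARG, RXRA, RXRB and VDR in the double knockdown.

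Most of the 8 calls of receptor genes depended on how limma estimated the spread. Without its intensity trend 6 of the 8 were lost: RXRB after siELOVL2 (adjusted p = 0.0925) and in the double knockdown (0.0541), RXRA (0.107), VDR (0.101) and NR2F6 (0.0935) in the double knockdown, and PPARD between siELOVL5 and siELOVL2 cells (0.0641). RXRA stayed called there in both comparisons of siELOVL5 cells alone. When only the libraries of both groups compared were fitted, 5 of the 8 were lost: RXRA after siELOVL5 (limma adjusted p = 0.0652), RXRB after siELOVL2 (0.0514) and in the double knockdown (0.0698), NR2F6 (0.0729) and PPARD (0.0986). VDR was also lost when no filter on low values was used (0.0523). The call of RXRA between siELOVL5 and siELOVL2 cells was kept under each of these settings.

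**Figure D1:**
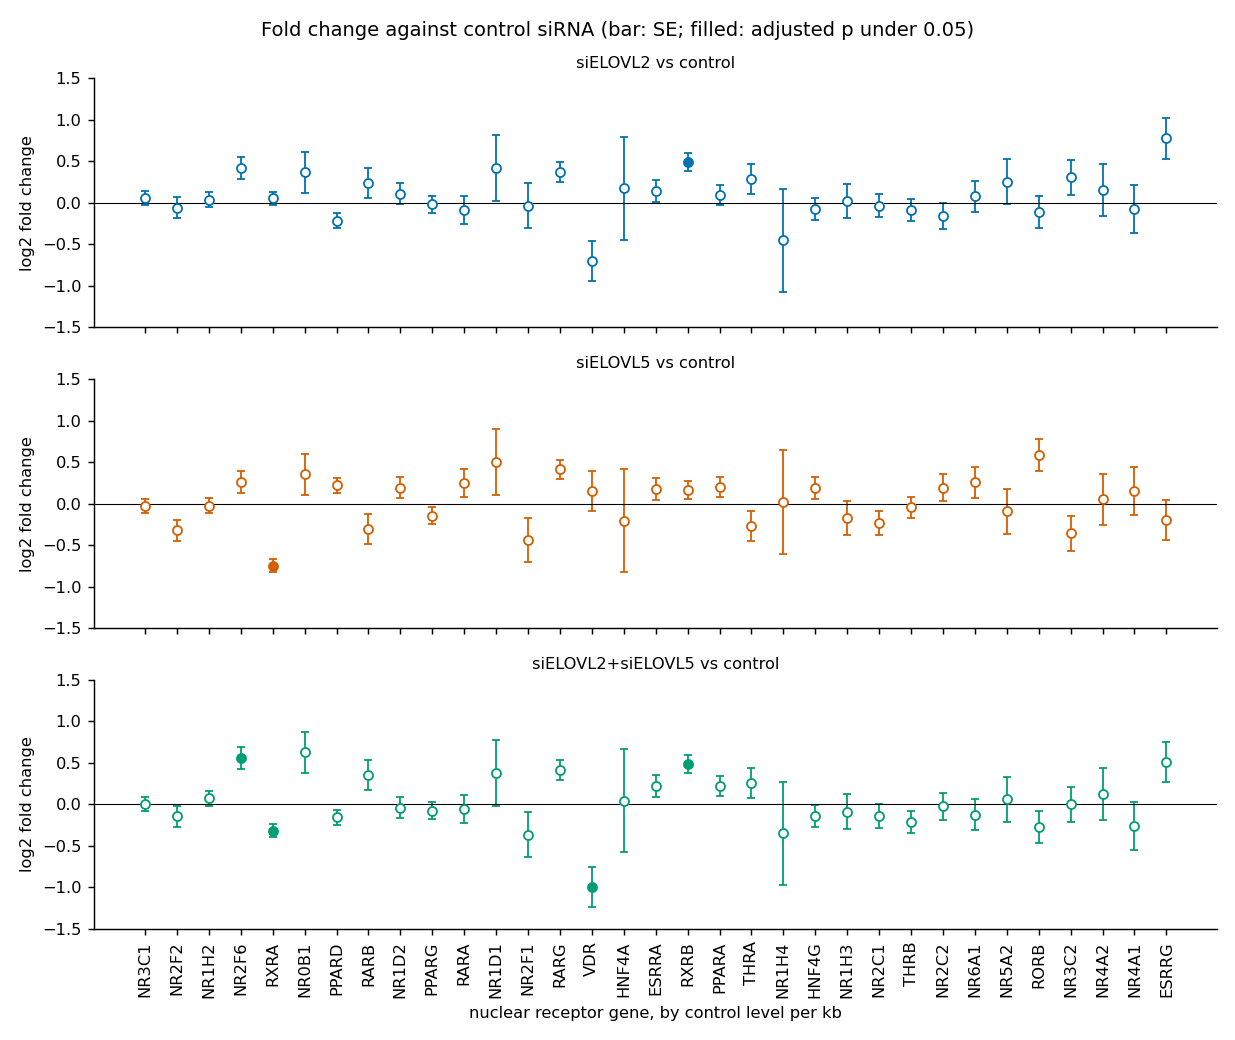
Log2 fold change against control siRNA of the 33 receptor genes with a control mean of at least 10 normalized counts, in siELOVL2, siELOVL5 and double-knockdown cells, ordered by control level per kb of exon. Points are limma estimates with SE bars, and filled points are called genes; RXRA falls to -0.75 after siELOVL5 and VDR to -1.0 in the double knockdown, and most other points lie within 0.5 of 0.

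In control cells 26 of the 46 genes had a mean of at least 100 normalized counts, 7 lay between 10 and 100, 8 lay above 0 and under 10, and 5 were at 0. Levels were compared between genes only after division by the length of each gene's exons in GENCODE 29. On that scale NR3C1, the glucocorticoid receptor, led with 357 ± 10.5 normalized counts per kb of exon (SD, n = 3), followed by the orphan receptor NR2F2 (COUP-TFII) with 213 ± 9.83. NR1H2 (LXR beta) with 147 ± 9.29, NR2F6 with 146 ± 18.4 and RXRA with 134 ± 3.72 came next and their libraries overlapped between neighbours. NR0B1 (DAX-1) had 113 ± 24.5, PPARD 96.3 ± 8.16, RARB 93.5 ± 15.8, and NR1D2 (REV-ERB beta) 93.1 ± 3.48, and these neighbours overlapped as well. Among the PPARs the order per kb was PPARD, PPARG (77.2 ± 6.62) and PPARA (45.3 ± 3.90), without overlap between their control libraries. Between the RXRs RXRA lay above RXRB (48.7 ± 4.13), and RXRG had no read in any library. The vitamin D receptor stood at 62.1 ± 9.49 per kb, HNF4A at 50.3 ± 27.7 and FXR (NR1H4) at 44.1 ± 21.1, with control libraries of these last 2 genes 3.39-fold and 2.69-fold apart.

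**Figure D2:**
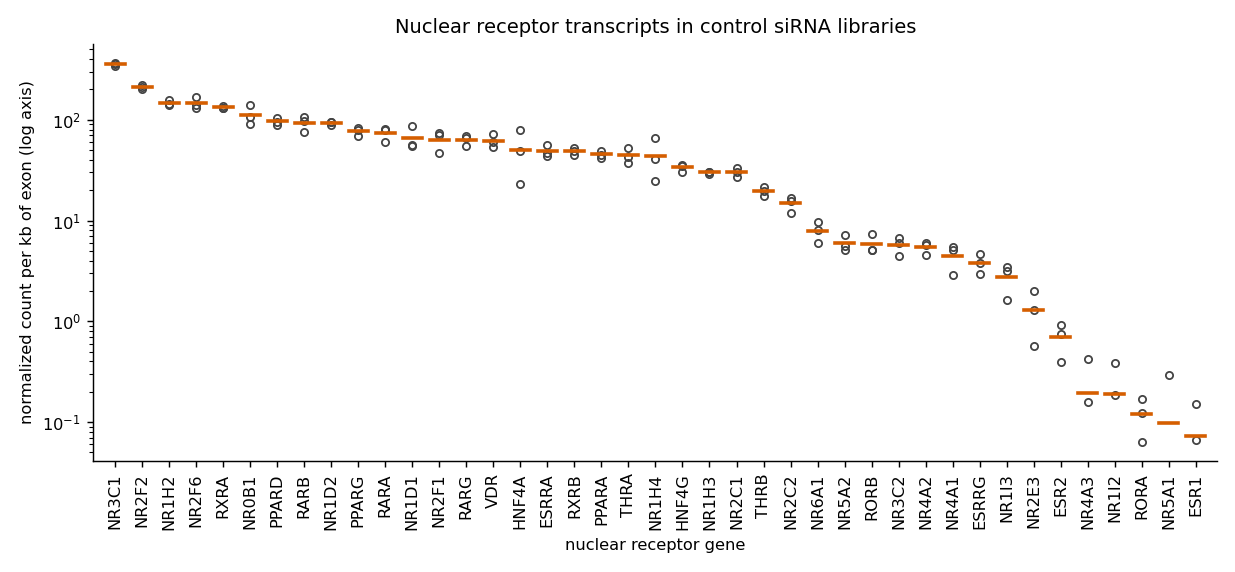
Normalized counts per kb of GENCODE 29 exon in the 3 control siRNA libraries (circles) and their mean (line) for the 41 receptor genes with a control mean above 0, on a log axis; libraries at 0 are not drawn. NR3C1 lies highest at 357 per kb, and a broad group follows between about NR2F2 (213) and THRB (19.5). NR4A3, NR1I2, RORA, NR5A1 and ESR1 lie under 0.2.

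RXRA, the retinoid X receptor that partners most of the lipid-sensing receptors, fell after siELOVL5. It stood at 1461, 1464 and 1534 normalized counts in the control libraries, 1430, 1578 and 1628 after siELOVL2, 869, 942 and 845 after siELOVL5 and 1161, 1132 and 1289 in the double knockdown. The siELOVL5 libraries all lie below the double-knockdown libraries, which all lie below the controls, and siELOVL2 and control overlap. The mean went from 1486 ± 41.2 to 885 ± 50.3 (SD, n = 3), or 59.6% of control (log2 fold change -0.75, SE 0.077, limma adjusted p = 0.0011), and in the double knockdown to 1194 ± 83.2, or 80.3% (log2 fold change -0.32, SE 0.077, limma adjusted p = 0.0362). In these bulk libraries fewer cells holding a transcript and less of it per cell cannot be told apart. Against siELOVL2 cells the siELOVL5 value was lower too (log2 fold change -0.80, SE 0.077, limma adjusted p = 1.55e-04). Each of the 12 libraries was also left out in turn, 1 at a time, and a library named after a lost call is the 1 left out. The siELOVL5 call was kept without any 1 of the 12 libraries (highest limma adjusted p = 0.0119); without siELOVL5 replicate 3 the log2 fold change was -0.72 (adjusted p = 0.00241). The double-knockdown call was less secure: it was lost without double-knockdown library 1 or 2, siELOVL2 library 2, or any control library (limma adjusted p = 0.0617 to 0.136). The interaction estimate for RXRA was 0.38 on the log2 scale (SE 0.11, limma adjusted p = 0.996), so a difference between the double knockdown and the sum of the single ones was not called.

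RXRA also carries a short sequence that had marked transcripts lower after siELOVL5 in an earlier scan of these data. The 7-base word GAGAGGA, searched on the transcript strand only, occurs in the 3′ UTR of 23.0% of the 14132 tested genes with an annotated UTR. Since the word was picked for that pattern, how its carriers moved after siELOVL5 is no separate result. The word is in the 3′ UTR of 15 of the 42 tested receptor genes, such as PPARA, PPARG, HNF4A, THRA and THRB. RXRA itself is not among these 15. Like RXRA, the genes NR1H3, NR1H4, NR1I2, ESRRA and ESRRG hold the word in a coding transcript but not in the 3′ UTR. The word is thus not particular to RXRA among the receptor genes. None of the other carriers was called after siELOVL5, where only 0.139% of all tested genes were called, so this says nothing about the word. The share of all tested genes that hold it outside the 3′ UTR was not counted. The coding transcript of RXRA in GENCODE 29 ends 405 bases after its stop codon and holds the word only upstream of it. The longer transcript RXRA-201 (5770 bases), annotated as a processed transcript, holds it at that place and at another 2, 3413 and 3920 bases past the stop codon. All 3 sites are shown because they are the only copies in RXRA transcripts; the capitals mark the word, and positions are on GRCh38, plus strand, chr9:134417233-134417262, chr9:134440016-134440045 and chr9:134440523-134440552.
RXRA coding site: acatgccggtgGAGAGGAtcctggaggctg
RXRA downstream site 1: ctaatactttaGAGAGGAtgacagatccat
RXRA downstream site 2: gggagaagtgtGAGAGGAgaaacaaaatat
A match is a description of the letters, and the siRNA sequences were not analysed here.

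RXRB, the second RXR in these cells, was called higher in the double knockdown and after siELOVL2 alone. It stood at 174, 206 and 193 in the control libraries, 266, 286 and 253 after siELOVL2, 208, 224 and 209 after siELOVL5 and 234, 280.0 and 289 in the double knockdown. All 9 knockdown libraries lie above all 3 controls, which holds for 2 receptor genes (RXRB and RARG) and for 1.34% of all tested genes; these comparisons share their controls. RXRB rose after siELOVL2 to 141% of control (log2 fold change 0.49, SE 0.11, limma adjusted p = 0.0415) and in the double knockdown to 140% (log2 fold change 0.48, SE 0.11, limma adjusted p = 0.0236). After siELOVL5 it was at 112% and not called (log2 fold change 0.16, limma adjusted p = 0.644, and 0.18 without siELOVL5 replicate 3). In siELOVL5 cells it was lower than in siELOVL2 cells, as RXRA was, without a call (-0.33, limma adjusted p = 0.126, and -0.31 without siELOVL5 replicate 3). The siELOVL2 call was lost without double-knockdown library 2, siELOVL5 library 1 or 2, any siELOVL2 library, or any control library (limma adjusted p = 0.0562 to 0.182), and also with the recovered reads in place of the quantile-normalized values (0.0612). The double-knockdown call was lost without double-knockdown library 2 or 3, or control library 1 or 3 (0.0605 to 0.106). In GENCODE 29 244 exon bases of RXRB (6.22%) overlap SLC39A7 on the opposite strand, and whether counting used strand is not stated, so reads of the 2 genes cannot be told apart there. RXRG, the RXR of muscle and brain, had 0 reads in each of the 12 libraries.

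The PPARs bind fatty acids directly. PPARD stood at 422, 469 and 397 in control, 365, 390.4 and 352 after siELOVL2, 497.8, 503 and 496 after siELOVL5 and 351, 408 and 395 in the double knockdown. It was higher than control in all siELOVL5 libraries and lower than control in all siELOVL2 libraries, and neither difference was called (log2 fold change 0.22, limma adjusted p = 0.454, and -0.21, adjusted p = 0.292). Such separation was common over all tested genes, as counted above. The difference between siELOVL5 and siELOVL2 cells was called (log2 fold change 0.43, SE 0.088, limma adjusted p = 0.022), and it was 0.44 without siELOVL5 replicate 3 (adjusted p = 0.023). That call was lost without siELOVL5 library 1 or 2, or any siELOVL2 library (limma adjusted p = 0.0511 to 0.0957). PPARA, the receptor that drives fatty acid oxidation in liver and kidney, stood at 548, 596 and 651 in control, 577, 616 and 727 after siELOVL2, 602, 684 and 783 after siELOVL5 and 636, 682 and 785 in the double knockdown. Its groups overlap, and its largest fold change was 0.23 in the double knockdown (limma adjusted p = 0.344). PPARG, the adipocyte receptor, stood at 373, 361 and 316 (control), 332, 309 and 401 (siELOVL2), 314, 310.0 and 320.1 (siELOVL5) and 319, 339 and 332 (double knockdown). The PPARG groups overlap in every comparison with control, with fold changes of -0.015, -0.15 and -0.080 (limma adjusted p = 0.976, 0.674 and 0.746). Without siELOVL5 replicate 3 the siELOVL5 differences from control were 0.22 for PPARD, 0.10 for PPARA and -0.16 for PPARG.

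**Figure D3:**
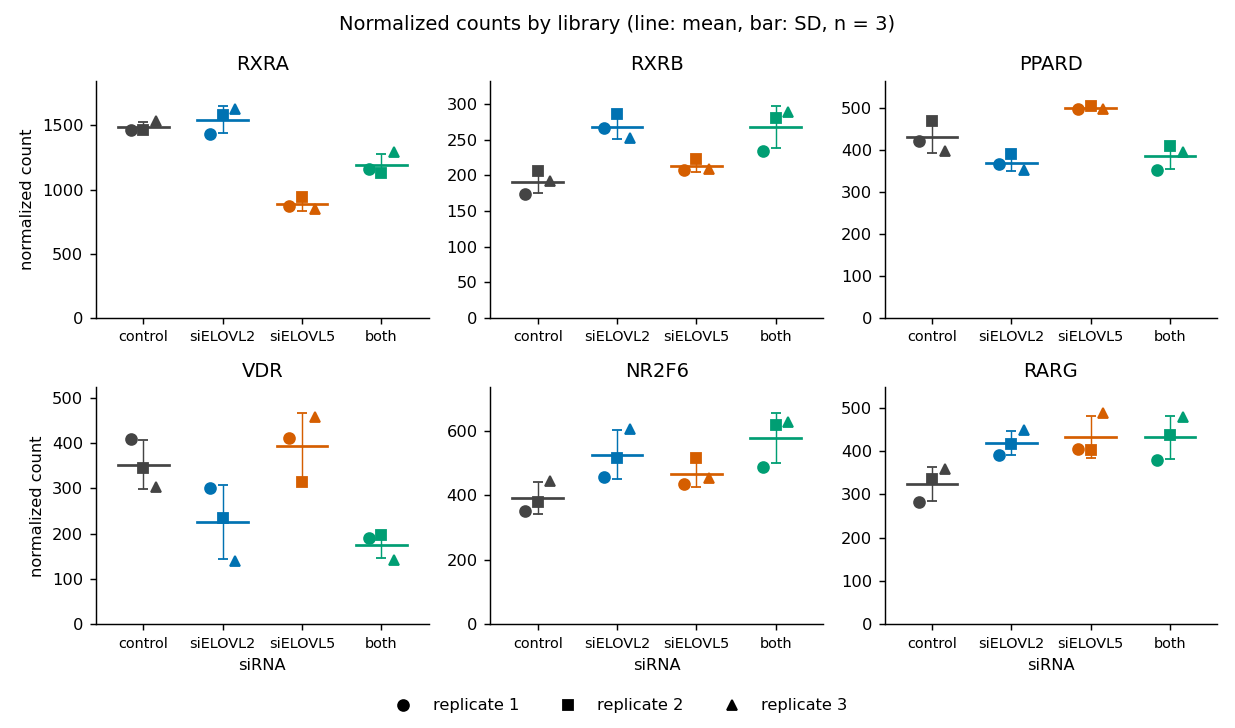
Normalized counts of RXRA, RXRB, PPARD, VDR, NR2F6 and RARG in each of the 12 libraries, with group means (lines) and SD (bars, n = 3); marker shapes are replicate numbers. RXRA is lowest after siELOVL5 (869, 942 and 845), VDR is lowest in the double knockdown (191, 196 and 141), and RXRB and RARG lie above the controls in all 9 knockdown libraries.

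VDR, the vitamin D receptor, which acts with RXR on calcium and phosphate genes, fell in the double knockdown. It stood at 409.8, 344 and 303 in control, 301, 235 and 139 after siELOVL2, 412, 315 and 457 after siELOVL5 and 191, 196 and 141 in the double knockdown. Every library that received siELOVL2 lies below every control, and the siELOVL5 libraries overlap with the controls. The mean went from 352 ± 53.9 to 176 ± 30.4, or 50% of control, in the double knockdown (log2 fold change -1.0, SE 0.24, limma adjusted p = 0.0359). After siELOVL2 alone it was 225 ± 81.5, or 63.9%, and not called (log2 fold change -0.70, SE 0.24, limma adjusted p = 0.195). The difference between siELOVL5 and siELOVL2 cells missed the threshold (0.86, limma adjusted p = 0.0784), and without siELOVL5 replicate 3 it was 0.75 (adjusted p = 0.159). The double-knockdown call was lost without any double-knockdown library, siELOVL2 library 2, or any control library (limma adjusted p = 0.0539 to 0.148), and the direction stayed the same in each of these.

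VDR holds a 3′ UTR site for words that had marked transcripts lower after siELOVL2 in the earlier scan. The words were ACGAATA, then the word CACGATA, and last the overlapping word ACGATAA. At least 1 of the 3 words, searched on the transcript strand, occurs in the 3′ UTR of 782 of the 14132 tested genes with a UTR (5.53%). These words too were picked by how their carriers moved, which is therefore not counted here. Among the 42 tested receptor genes VDR and NR6A1 carry one. The VDR site, at base 446 of a 3209-base 3′ UTR and present in 4 of 5 transcripts with a UTR, lies at chr12:47844282-47844311 on the minus strand of GRCh38, and CACGATA overlaps there with the word ACGATAA; the capitals mark both.
VDR 3′ UTR site: tcctgcctactCACGATAAataatcggccc
NR6A1 (germ cell nuclear factor), the other carrier, stood at 69.2, 57.6 and 42.9 in control and 56.0, 57.7 and 63.2 after siELOVL2, and its groups overlap.

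NR2F6 (EAR2), an orphan receptor of the COUP-TF group that mostly represses transcription, rose in the double knockdown. It stood at 349.8, 377 and 445 in control, 456, 515 and 606 after siELOVL2, 434, 515 and 452 after siELOVL5 and 488, 617 and 627 in the double knockdown. Only the siELOVL5 libraries overlap with the controls. The double knockdown stood at 148% of control (log2 fold change 0.56, SE 0.13, limma adjusted p = 0.0325), and siELOVL2 at 134% without a call (0.42, limma adjusted p = 0.153). The double-knockdown call was lost without double-knockdown library 2 or 3, siELOVL2 library 2, or control library 1 or 2 (limma adjusted p = 0.0532 to 0.141). The other COUP-TFs were not called. NR2F2 stood at 1312, 1375 and 1439 in control, 1192, 1342 and 1437 after siELOVL2, 1184, 1264 and 886 after siELOVL5 and 1100, 1262 and 1382 in the double knockdown; siELOVL5 lay below control without overlap and was not called (-0.32, limma adjusted p = 0.449, and -0.17 without siELOVL5 replicate 3). NR2F1 (COUP-TFI) stood at 201, 304 and 316 (control), 189.9, 271 and 350.4 (siELOVL2), 180.1, 242 and 177 (siELOVL5) and 164, 177 and 309.7 (double knockdown), with all groups overlapping control.

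The retinoic acid receptors act with RXR on genes of growth and differentiation. RARG stood at 281, 335 and 358 in control, 391, 416 and 448 after siELOVL2, 404, 403 and 488 after siELOVL5 and 379.8, 436 and 478 in the double knockdown. Every knockdown library lies above every control, with fold changes of 0.37, 0.41 and 0.41 that were not called (limma adjusted p = 0.165, 0.288 and 0.073). Without siELOVL5 replicate 3 the double-knockdown difference was called (0.41, limma adjusted p = 0.029), and the siELOVL5 value was 0.32 (adjusted p = 0.549). RARB, itself a retinoic acid target, stood at 282, 357 and 397 in control, 331, 429 and 461 after siELOVL2, 284, 337 and 221 after siELOVL5 and 379, 421 and 520.2 in the double knockdown. It was lower in siELOVL5 than in siELOVL2 cells on average, with overlap and no call (-0.54, limma adjusted p = 0.137, and -0.38 without siELOVL5 replicate 3). RARA stood at 286, 373 and 383 (control), 332, 314 and 326 (siELOVL2), 340.1, 408 and 491 (siELOVL5) and 261, 338 and 415 (double knockdown); 17.9% of its exon bases overlap RARA-AS1 and another gene on the opposite strand.

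The thyroid hormone receptors gave no call. THRA stood at 261, 296 and 369 in control, 299, 376 and 457 after siELOVL2, 225, 272 and 264 after siELOVL5 and 323, 326 and 464 in the double knockdown, and all siELOVL5 libraries lie below all siELOVL2 libraries (-0.55, limma adjusted p = 0.126, and -0.59 without siELOVL5 replicate 3). THRB ranged from 168 to 245 over the 12 libraries, with every knockdown group overlapping control.

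HNF4A and FXR differed more between libraries of the same group than between groups. HNF4A, which drives tubule and hepatocyte genes, stood at 169, 361 and 573 in control, 197, 404 and 632 after siELOVL2, 149, 357 and 428 after siELOVL5 and 201, 209.8 and 907 in the double knockdown. NR1H4, the bile acid receptor FXR, stood at 89.9, 149 and 242 (control), 44.1, 117 and 241 (siELOVL2), 88.6, 152 and 249.5 (siELOVL5) and 61.2, 99.2 and 255 (double knockdown). For both, the library numbered 1 is the lowest and the library numbered 3 the highest in all 4 groups. Replicate number accounted for 83.5% of the log2 variation of HNF4A and 87.6% of that of NR1H4, and the siRNA group for 2.93% and 6.74%. Of the 42 tested receptor genes 15 varied more by number than by group, as did 34.7% of all tested genes. HNF4A and NR1H4 were the only 2 tested receptor genes over 75% by number, a level that 1.96% of all tested genes passed. The median over the 42 receptor genes was 13.9% by number and 31.1% by group, and over all tested genes 18.6% and 33.2%. The same order of libraries held for NR0B1 (62.1% by number), PPARA (66.2%) and NR1D1 (56.8%). Whether a number marks a shared day or passage is not stated, and what differed between the libraries was not tested. With this spread, changes of HNF4A and NR1H4 had SEs of 0.62 and 0.62 on the log2 scale, and their fold changes against control (0.17, -0.20 and 0.044 for HNF4A, -0.45, 0.020 and -0.35 for NR1H4) were not detectable at this precision. The siELOVL5 values were -0.50 and -0.35 without siELOVL5 replicate 3.

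**Figure D4:**
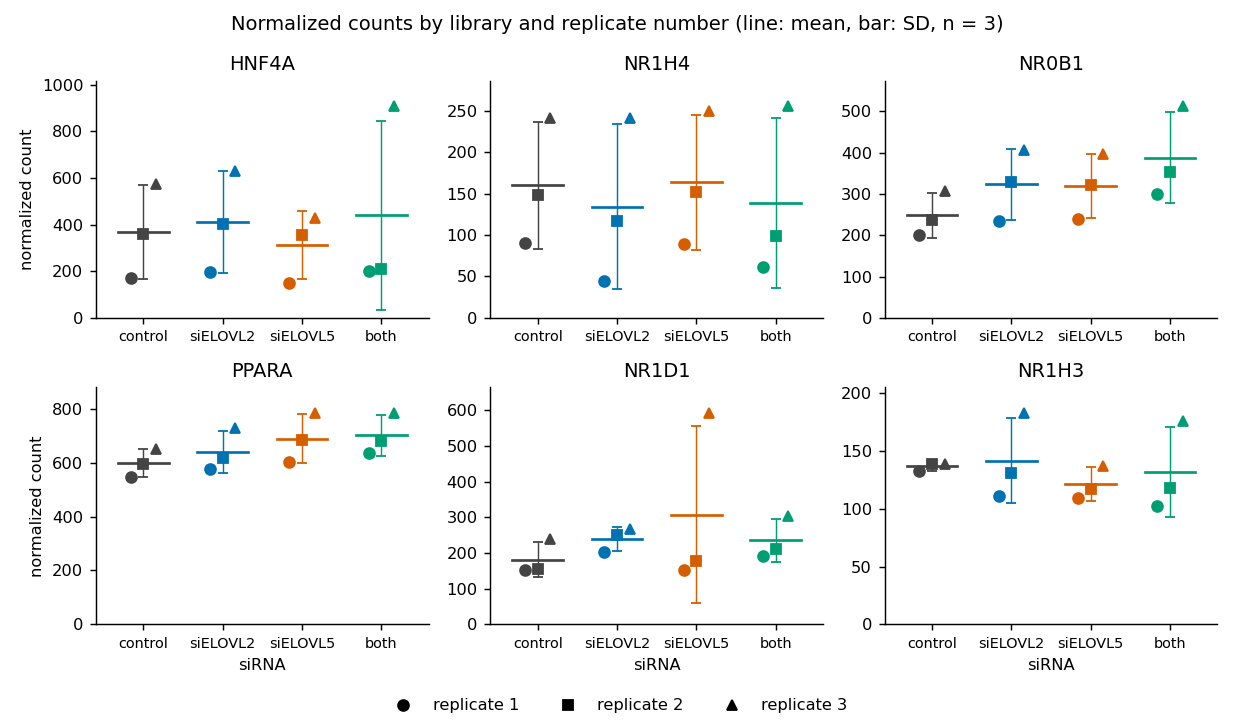
Normalized counts of HNF4A, NR1H4, NR0B1, PPARA, NR1D1 and NR1H3 in each library, with group means (lines) and SD (bars, n = 3); marker shapes are replicate numbers. In the first 5 genes the library numbered 3 is highest and the one numbered 1 lowest in all 4 groups, and NR1D1 reaches 593 in siELOVL5 replicate 3.

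Because HNF4A and NR1H4 moved together across the libraries, the bases around their transcription starts are shown, from 250 before to 50 after the start, from RefSeq on GRCh38.p14. They were searched for AGGTCA, the core element read by most nuclear receptors, for AGTTCA, its common variant, and for CACGTG, the E-box of the clock factors, on both strands. AGGTCA is in 13.8% of all 35116 promoters of this length, AGTTCA in 10.4% and CACGTG in 7.26%. Of 96 promoters of 41 receptor genes, 16 (16.7%), 12 (12.5%) and 9 (9.38%) hold them. The NR1H4 promoter at chr12:100503110-100503409, plus strand, holds AGGTCA on the minus strand, in capitals. The HNF4A promoters at chr20:44355449-44355748 and chr20:44400989-44401288, plus strand, hold none of the 3.
NR1H4 promoter: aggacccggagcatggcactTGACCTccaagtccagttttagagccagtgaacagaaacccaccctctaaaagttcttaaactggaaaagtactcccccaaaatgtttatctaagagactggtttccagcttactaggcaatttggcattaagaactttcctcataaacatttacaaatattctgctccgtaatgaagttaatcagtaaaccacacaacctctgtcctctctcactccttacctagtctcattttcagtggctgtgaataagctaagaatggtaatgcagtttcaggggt
HNF4A promoter 1: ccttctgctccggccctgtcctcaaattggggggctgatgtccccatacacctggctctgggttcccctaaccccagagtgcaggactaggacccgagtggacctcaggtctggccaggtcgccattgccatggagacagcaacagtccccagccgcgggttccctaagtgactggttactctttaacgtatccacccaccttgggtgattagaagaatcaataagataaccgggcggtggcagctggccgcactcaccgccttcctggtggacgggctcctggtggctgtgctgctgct
HNF4A promoter 2: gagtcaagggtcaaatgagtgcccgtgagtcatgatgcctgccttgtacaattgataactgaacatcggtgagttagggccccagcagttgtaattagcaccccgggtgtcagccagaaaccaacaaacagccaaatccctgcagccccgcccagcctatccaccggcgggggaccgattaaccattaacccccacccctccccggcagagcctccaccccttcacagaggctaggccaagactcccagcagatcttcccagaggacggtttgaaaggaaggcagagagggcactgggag
No match says only that these letters are not in this window.

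The other lipid-sensing receptors stayed close to control. NR1H2 (LXR beta), an oxysterol receptor, stood at 528, 535 and 592 in control, 589, 559.7 and 551 after siELOVL2, 576, 529 and 522 after siELOVL5 and 661, 547 and 536 in the double knockdown. All of its groups overlap, and its fold changes against control lay between -0.024 after siELOVL5 (0.0029 without siELOVL5 replicate 3) and 0.071 in the double knockdown. NR1H3 (LXR alpha), its paralogue, stood at 132, 139 and 138 (control), 111, 131 and 183 (siELOVL2), 109, 118 and 137 (siELOVL5) and 102, 118 and 176 (double knockdown). Its 3 control libraries lie close together and its siELOVL2 and double-knockdown libraries spread on either side of them. HNF4G, a paralogue of HNF4A, stood at 172, 167 and 146 (control), 161, 134 and 169 (siELOVL2), 181, 163 and 210.1 (siELOVL5) and 138, 162 and 141 (double knockdown), and unlike HNF4A its libraries did not follow the replicate number.

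NR3C1, the glucocorticoid receptor, stood at 3169, 3361 and 3287 in control, 3434, 3371 and 3434 after siELOVL2, 2907, 3064 and 3704 after siELOVL5 and 3387, 3335 and 3157 in the double knockdown. Its fold changes against control were 0.061, -0.029 and 0.0088 (SE 0.084), none of them called by limma, and the siELOVL5 value was -0.13 without siELOVL5 replicate 3. NR3C2, the mineralocorticoid receptor, was much lower, at 23.2 to 50.2 over the libraries, and all siELOVL5 libraries lay below all siELOVL2 libraries (-0.66, limma adjusted p = 0.116, and -0.51 without siELOVL5 replicate 3). The estrogen receptors ESR1 and ESR2 and the progesterone receptor PGR had 13, 69 and 3 reads over all 12 libraries together. None of these 3 was called.

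NR0B1 (DAX-1), a receptor without a DNA-binding domain that represses others, stood at 201, 237 and 307 in control, 235, 329 and 406 after siELOVL2, 240.3, 322 and 396 after siELOVL5 and 299.6, 353 and 512 in the double knockdown. Its double-knockdown mean was 156% of control, with 1 double-knockdown library below the highest control and no call (log2 fold change 0.63, SE 0.25, limma adjusted p = 0.184). NR0B2 (SHP), the bile acid-induced repressor, had 0 reads in all 12 libraries.

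The REV-ERBs repress clock genes, and the RORs compete with them for the same elements. NR1D1 (REV-ERB alpha) stood at 151, 155 and 238 in control, 202, 249 and 267 after siELOVL2, 151, 177 and 593 after siELOVL5 and 192, 210.4 and 303 in the double knockdown. The value of 593 is that of siELOVL5 replicate 3, and the siELOVL5 fold change of 0.50 (limma adjusted p = 0.724) became -0.12 without it. NR1D1 shares 263 exon bases (9.49% of its own) with THRA on the opposite strand. NR1D2 stood at 549.9, 519 and 557 (control), 562, 635 and 563 (siELOVL2), 561, 531 and 796 (siELOVL5) and 561, 534 and 488 (double knockdown), and it too was highest in siELOVL5 replicate 3. Of the 19 clock genes around them, 0 were called by limma in any comparison with control, and 2, 0 and 3 had an unadjusted p under 0.05 after siELOVL2, siELOVL5 and the double knockdown. In siELOVL5 replicate 3 the clock genes PER1 and NFIL3 reached 291 and 1359, against at most 96.4 and 587 elsewhere. RORB, the ROR of retina and brain, stood at 69.8, 49.3 and 49.0 in control and 82.7, 74.5 and 94.5 after siELOVL5, without overlap and without a call (0.59, limma adjusted p = 0.356, and 0.50 without siELOVL5 replicate 3). RORA lay at 1.00 to 12.2, with 60 reads over all libraries. Its double-knockdown libraries, 12.2, 5.58 and 7.58, lay above the controls, 1.08, 2.08 and 2.92, without a call (1.63, limma adjusted p = 0.109).

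The NR4A receptors are immediate early genes that need no known ligand. NR4A1 ranged from 20.3 to 40.5 and NR4A2 from 16.7 to 34.8 over the 12 libraries, and NR4A3 had 17 reads in all. In siELOVL5 replicate 3, where other immediate early genes were high, NR4A1 was at 38.3 and NR4A2 at 34.8. NR4A1 was thus within the range of the control libraries there, and NR4A2 was at the highest of its 12 values. Of 13 tested immediate early partner genes all 13 lay above 0 after siELOVL5, with a median log2 fold change of 0.78; limma called 0 of them, and 3 had an unadjusted p under 0.05. Without siELOVL5 replicate 3 their median was 0.074, with 7 of 13 above 0.

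The estrogen-related receptors act with PGC-1 on mitochondrial genes. ESRRA ranged from 134 to 195 without a call. ESRRG was higher in the siELOVL2 libraries (62.0, 68.8 and 81.5) than in all controls (50.4, 32.1 and 41.3), at 628 reads over all 12 libraries (log2 fold change 0.78, SE 0.24, limma adjusted p = 0.154). Without siELOVL5 replicate 3 its siELOVL2 fold change of 0.78 was called (limma adjusted p = 0.0405). In siELOVL5 cells it was lower than in siELOVL2 cells without a call (-0.97, limma adjusted p = 0.0514, and -0.71, adjusted p = 0.0935, without siELOVL5 replicate 3). ESRRB had 3 reads, in 3 libraries.

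The remaining orphan receptors showed no call in any comparison. NR2C1 (TR2) ranged from 139.6 to 217, NR2C2 (TR4) from 131 to 218, NR5A2 (LRH-1) from 30.8 to 67.8 and NR6A1 from 42.9 to 75.2. NR2E3, a photoreceptor gene, had 28 reads, NR5A1 (SF-1) had 7, and NR2E1 had none. The xenobiotic receptors NR1I2 (PXR) and NR1I3 (CAR) had 10 and 101 reads over all libraries, with NR1I2 at 0 in all siELOVL2 libraries. In the shallowest library a gene without any read can stand at up to 0.917 normalized counts, so values near 1 stand for single reads.

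Genes that work with the receptors were followed in 17 lists with 249 genes, of which 207 were tested. Most of their calls were also lost under other settings of limma. Without the intensity trend those of CARM1, PNRC2, TBL1XR1, RDH10, CPT1A, TXNIP, CEBPB and CCND1 described next were lost (adjusted p = 0.0511 to 0.124). With only both groups compared in the fit, the calls of PNRC2 (0.135), RDH10 (0.164), ABCB4 (0.147), SLC51B (0.0796) and CCND1 (0.102) were lost, as were that of CARM1 in the double knockdown (0.0655) and those of CARM1 (0.113) and TXNIP (0.151) between siELOVL5 and siELOVL2 cells. The calls of NRIP1, ALDH1A3, HADHB and CYP2C8 were kept in both. Among 18 coactivators, CARM1, an arginine methyltransferase recruited by receptor coactivators, fell from 602 ± 5.87 (SD, n = 3) to 422 ± 12.0 after siELOVL2 (log2 fold change -0.51, SE 0.10, limma adjusted p = 0.0264), and in the double knockdown to 460.3 ± 50.2 (-0.39, adjusted p = 0.0451). The other 17 were not called in these comparisons, and 0 of 18 were called by limma after siELOVL5, with 5 at an unadjusted p under 0.05. CARM1 and PNRC2, a small coactivator, were higher in siELOVL5 than in siELOVL2 cells (0.56 and 0.53, limma adjusted p = 0.0113 and 0.0179), and the differences were 0.65 and 0.44 without siELOVL5 replicate 3. The siELOVL2 call of CARM1 was lost without any siELOVL2 library, or any control library (adjusted p = 0.0799 to 0.123). Its double-knockdown call was lost without any double-knockdown library, siELOVL5 library 2, or any of those 6 libraries (0.0573 to 0.158). That of PNRC2 was lost without siELOVL2 replicate 2 or 3 (0.0735 to 0.0886). Among 15 corepressors, TBL1XR1, a subunit of the NCoR and SMRT complexes, fell in the double knockdown from 4156 ± 292 to 3050 ± 279 (log2 fold change -0.45, SE 0.10, limma adjusted p = 0.0294). This call was lost without double-knockdown library 1 or 2, or any control library (0.0593 to 0.11). NRIP1 (RIP140), a ligand-dependent corepressor and retinoic acid target, was lower in siELOVL5 (2269, 2220 and 2318) than in siELOVL2 cells (3184, 3293 and 3406; log2 fold change -0.54, SE 0.065, limma adjusted p = 8.23e-04), a call kept without any 1 of the 12 libraries. None of the 11 chaperones of steroid receptors was called by limma in any comparison, with 0, 1 and 1 at an unadjusted p under 0.05 against control.

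ALDH1A3, which makes retinoic acid from retinal, stood at 201, 194 and 213 in control, 121, 113 and 102 after siELOVL2, 151, 128 and 151 after siELOVL5 and 117, 97.8 and 107 in the double knockdown. All knockdown libraries lie below all controls, and it was called after siELOVL2 (log2 fold change -0.85, SE 0.12, limma adjusted p = 0.00347) and in the double knockdown (log2 fold change -0.92, SE 0.12, limma adjusted p = 0.00115), without any 1 library too. It was the only called gene of the 19 tested for ligand supply and breakdown against control; 0 of the 19 were called by limma after siELOVL5, with 4 at an unadjusted p under 0.05 (1 called without siELOVL5 replicate 3). RDH10, the retinol dehydrogenase before it, was lower in siELOVL5 (494, 498.3 and 698) than in siELOVL2 cells (794, 940.2 and 1066; log2 fold change -0.74, SE 0.14, limma adjusted p = 0.018). That call was lost without siELOVL5 library 1 or 2, or siELOVL2 library 2 or 3 (0.0509 to 0.086), and without siELOVL5 replicate 3 the difference was -0.90.

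Of the 23 tested PPAR targets 2 were called higher in the double knockdown, 1 lower, and 0 after either single siRNA. Of all tested genes 4.42% were called in the double knockdown, 1.36% after siELOVL2 and 0.139% after siELOVL5. An unadjusted limma p under 0.05 was found for 6 of the 23 after siELOVL2, 2 after siELOVL5 and 11 in the double knockdown. Over all 18648 tested genes these counts were 2557, 1783 and 3505. In the double knockdown HADHB, a subunit of the mitochondrial trifunctional protein, rose from 696, 679.7 and 699.7 to 966, 982 and 1081 (log2 fold change 0.54, SE 0.083, limma adjusted p = 0.00303), a call kept without any 1 library. CPT1A, which starts mitochondrial import of long fatty acids, rose from 542, 516 and 600.5 to 772, 724 and 888 (log2 fold change 0.52, SE 0.11, limma adjusted p = 0.0185), and lost the call without double-knockdown library 1 or 3, or control library 1 or 2 (0.053 to 0.0949). TXNIP, a thioredoxin-binding protein, fell from 725, 644 and 622 to 302, 268 and 406 (log2 fold change -1.05, SE 0.27, limma adjusted p = 0.0481). This call was lost without double-knockdown library 1 or 2, or any 1 of the siELOVL2 or control libraries (limma adjusted p = 0.0607 to 0.164). TXNIP stood at 702, 717 and 1735 after siELOVL5, the last value being that of replicate 3, and its difference between siELOVL5 and siELOVL2 cells was 1.57 with and 1.14 without that library (limma adjusted p = 0.00933 and 9.13e-04, and 0.151 with only these groups in the fit). The median log2 fold change of the 23 was 0.17, -0.025 and 0.20 after siELOVL2, siELOVL5 (-0.010 without siELOVL5 replicate 3) and the double knockdown.

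Targets of the other receptors gave few calls. None of 15 tested LXR targets was called after either single siRNA, where 3 and 1 had an unadjusted limma p under 0.05. Of the 10 genes of the FXR and SHP pathway 3 were tested. SLC51B, a bile acid exporter subunit, had 0 reads in the control and siELOVL5 groups, 7 after siELOVL2 and 5 in the double knockdown, where limma called it (adjusted p = 0.0396); with so few reads no fold is given. ABCB4, a phospholipid exporter, was lower in siELOVL5 (45.4, 41.2 and 41.0) than in siELOVL2 cells (71.5, 63.7 and 72; log2 fold change -0.68, SE 0.16, limma adjusted p = 0.0423). Both calls were lost without any of 10 of the 12 single libraries (limma adjusted p = 0.0546 to 0.144 and 0.0519 to 0.149); SLC51B kept its call only without siELOVL5 replicate 3 or double-knockdown replicate 3, and ABCB4 only without double-knockdown replicate 1 or 3. CYP2C8, a drug-metabolizing enzyme and 1 of 6 tested PXR and CAR targets, had 10 reads in the control group, 2 after siELOVL2, 4 after siELOVL5 and 0 in the double knockdown, where it was called lower (limma adjusted p = 0.00728).

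Of 17 glucocorticoid receptor targets 14 lay above 0 after siELOVL5, with a median of 0.40 that was 0.017 without siELOVL5 replicate 3, and 0 were called by limma there (1 at an unadjusted p under 0.05). In the double knockdown 1 was called, CEBPB, a transcription factor of the acute phase, which rose from 1351, 1410 and 1524 to 2080, 2013 and 1964 (log2 fold change 0.50, SE 0.13, limma adjusted p = 0.0446). This call held only without siELOVL5 replicate 1 or 3 and was lost without any of the other 10 libraries (0.0514 to 0.162). Of 9 estrogen receptor targets CCND1, cyclin D1, fell in the double knockdown from 2659, 2652 and 2556 to 1994, 1620 and 2257 (log2 fold change -0.44, SE 0.11, limma adjusted p = 0.0373), a call lost without double-knockdown library 1 or 2, siELOVL5 library 2, siELOVL2 library 2 or 3, or any control library (0.0507 to 0.127). The 14 tested RAR targets, 9 VDR targets, 14 mitochondrial targets of the estrogen-related receptors and 7 HNF4A targets gave 0 limma calls against control; in the double knockdown 3, 1, 4 and 2 of them had an unadjusted p under 0.05.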

How the data were processed

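RNA of 12 A498 libraries was sequenced as paired-end 36-base reads on an Illumina NextSeq instrument, per the labels' protocols. The deposited table holds 1 signal value per gene and library, and its name calls these values normalized. The genome build, annotation, aligner, counting tool and strand setting of the authors are not given in the sources used. Every column holds the same set of values, all multiples of 1/12, which is what quantile normalization of 12 columns of read counts gives, so a shift shared by most genes of a library is removed. Reads behind normalized counts up to 422 were recovered from the order of ties (the recovery was tested on simulated data), which also gave the depths of 6.84 to 10.7 M reads.

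Values were tested as log2(value + 1), with a pseudocount of 1, in limma 3.58.1 under R 4.3.3, with an intensity trend and all 4 groups in 1 fit (8 residual degrees of freedom). Genes that reached a value of 1 in 3 or more libraries were tested. Fold changes of low genes are understated on this scale. P-values were adjusted by the Benjamini-Hochberg method within each comparison over 18648 genes, with a threshold of 0.05. The fit was tested on simulated data.

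The receptor genes, the lists and the sequence words were chosen with earlier results of these data known. Receptor genes named with every value are those called, the fatty acid, sterol and bile acid receptors with their partners, and the 10 others with the highest mean; NR6A1, RORB, RORA, NR4A1, NR4A2 and ESRRG are given selected values chosen after they were seen. Of each list up to 4 called genes per comparison are named, some results are not reported here, and of the 249 list genes 245 were found by name and 4 by another name. Exon lengths, overlaps and 3′ UTRs are from GENCODE 29 (GRCh38), and promoters from RefSeq (GRCh38.p14); 41 of the 46 receptor genes matched there. Levels per kb divide by all exon bases of a gene, although short isoforms may dominate. Figures were drawn with matplotlib 3.10.9. Alternatives covered the pseudocount, the filter, the intensity trend, the scaling, a replicate block, the groups fitted and each library left out; the fit on recovered reads was added after seeing the data.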

Additional observations from a re-analysis of the deposited data

How the results depend on the processing

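Counts of called genes moved widely with the processing. Fold changes of genes with few reads moved too. In the double knockdown that of NR2E3 lay between -1.80 and -0.43 over the alternatives, and that of RORA between 0.70 and 1.86. Without the intensity trend limma called 101 genes after siELOVL2, 413 in the double knockdown, 213 between siELOVL5 and siELOVL2 cells and 9 for the interaction, in place of 254, 825, 562 and 0; the receptor genes among them were 0, 0 and 1 (RXRA) for the first 3. With only the libraries of both groups compared, the counts were 412 after siELOVL2, 1 after siELOVL5 and 49 between the single knockdowns, with 0, 0 and 1 receptor genes, and 2 receptor genes were called in the double knockdown. Leaving out each library in turn gave 63 to 829 genes after siELOVL2, 9 to 41 after siELOVL5, 323 to 1779 in the double knockdown, 168 to 714 between the single knockdowns and 0 to 0 for the interaction. The receptor genes called in these fits numbered 0 to 2, 1 to 1, 0 to 5, 1 to 2 and 0 to 0 in the same order; the highest count after siELOVL2 and after siELOVL5, in the double knockdown and between the single knockdowns came without siELOVL5 replicate 3. Of 1079 refits of 59 single-gene results, 875 kept their direction and their side of the threshold, 191 lost the call, 12 gained it and 1 changed direction, NR1D1 after siELOVL5, at -0.1185 without siELOVL5 replicate 3 (range over the fits that left out 1 library -0.1185 to 0.865). The 59 were called list genes, receptor genes at an unadjusted limma p under 0.05, the targeted genes and NR1D1 after siELOVL5. Most were thus picked for a difference in these data. Leaving out a library of a group not compared also cannot move a fold change, so the kept directions are no separate result. Over the 41 receptor genes tested both ways, 8 changed direction after siELOVL5 without siELOVL5 replicate 3. No call of a receptor gene changed direction under any alternative. Depth limits the low members: a gene with no read can hold up to 0.917, and 4 receptor genes were not tested.

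The labels do not say what a replicate number marks, and the rule for treating the numbers as pairs (every correlation over 0.1) was not met, so they are read as numbers only. Deviations of same-numbered libraries correlated at 0.114 to 0.166 over genes for number 1, -0.001 to 0.032 for number 2 and 0.077 to 0.212 for number 3, with 9 of 18 pairs over 0.1, against at most 0.064 for different numbers. A library correlated best with its own number in another group in 31 of 36 cases, the 5 exceptions all being of number 2, which is a hint from the data and not from the design. With the replicate block limma called 861 genes after siELOVL2, 99 after siELOVL5, 1866 in the double knockdown and 1317 between the single knockdowns, with 4, 2, 7 and 5 receptor genes, and 0 for the interaction. The receptor genes beyond those called without the block were NR0B1, NR2F6 and RARG after siELOVL2, RARG after siELOVL5, NR0B1, PPARA and RARG in the double knockdown, and ESRRG, THRA and VDR between siELOVL5 and siELOVL2 cells.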
